A study of Homo sapiens with 6 samples.

Results

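HSP90 is a family of ATP-driven chaperones that act late in folding, on proteins that are already partly folded, such as kinases and steroid receptors. The family has separate members in the cytosol (HSP90AA1 and HSP90AB1), in the endoplasmic reticulum (HSP90B1, also called GRP94) and in mitochondria (TRAP1). Cytosolic HSP90 works with cochaperones that deliver clients, set the speed of ATP hydrolysis or close the dimer, and in the heat shock response the transcription factor HSF1 induces many of these genes. The RNA levels of 10 genes were examined, taken by symbol out of 60616 genes listed: the 4 HSP90 genes and CHORDC1, AHSA1, STIP1, FKBP4, CDC37 and HSPH1. HSPH1 is an HSP110 protein, which acts on HSP70 and passes clients towards HSP90, and the other 5 are HSP90 cochaperones.

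RNA was sequenced from 12Z cells, an immortalized line of wild-type genotype from human endometriosis, which as a cell line lacks the other cell types of a lesion. In one group of 3 libraries the cells had received an extract of frankincense, the resin of Boswellia trees, for 12 h at 70 ug/mL in DMSO. In the other group of 3 they had received the DMSO vehicle. Both groups grew with 10% charcoal-stripped serum, which is low in steroid hormones. Nothing states that replicates were separate cultures, so a p-value covers only the spread among these libraries and that spread may be technical. RNA was measured, not protein.

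The libraries held 23443295 to 25169710 expected counts after frankincense and 22615150 to 27615196 after vehicle. Expected counts are the RSEM program's estimates of reads per gene, and 3 counts in a library equalled 0.109 to 0.133 CPM (counts scaled to library size), a limit from counting error alone. Frankincense replicate 3 stood apart: its chi-square per degree of freedom against the other frankincense libraries was 12.9 and 11.2, where all other pairs within a group gave 3.65 to 4.18. The 8 epithelial markers summed to 1381 to 1435 TPM (RSEM's level per transcript length, scaled to a fixed total) after frankincense and 1607 to 1643 TPM after vehicle, led by KRT8 and KRT18, with CDH1 (E-cadherin) at 0.23 TPM or less in every library. Against the lower epithelial sum, KRT7 averaged 13.2 TPM after frankincense and 5.84 TPM after vehicle, and EPCAM 1.97 TPM and 1.12 TPM. PAX8 had overlapping groups, and the other epithelial markers had lower means after frankincense. The 8 stromal markers, led by COL1A1, summed to 1166 to 1415 TPM after frankincense and 2779 to 2840 TPM after vehicle. MME went against this sum, at means of 37.8 TPM after frankincense and 22.0 TPM after vehicle, while the other stromal markers had lower means. All 4 endothelial markers and all 4 red cell markers were under 1 TPM in every library. Of the 6 leukocyte markers CD68 and CD14 were above it in at least one. The leukocyte sums were 35.1 to 64.0 TPM after frankincense and 30.3 to 34.1 TPM after vehicle, nearly all of it CD68. The means of CD68 and CD14 moved in opposite directions. CD68 averaged 46.2 TPM after frankincense and 29.2 TPM after vehicle, and CD14 averaged 0.41 TPM after frankincense and 2.53 TPM after vehicle. The part of the stromal and leukocyte marker shifts in the HSP90 results was not tested, and in bulk RNA fewer cells of a type and less RNA per cell cannot be told apart.

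After frankincense the endoplasmic reticulum member HSP90B1 rose 2.64-fold and the mitochondrial member TRAP1 rose 1.42-fold, while of the cytosolic pair HSP90AA1 was not called and HSP90AB1 was slightly lower from counts but not on the TPM scale. Among the cochaperones CHORDC1, FKBP4, HSPH1 and AHSA1 rose, and STIP1 and CDC37 were not called. All 10 genes passed the filter on low counts. By the quasi-likelihood test of edgeR, with p-values adjusted by the Benjamini-Hochberg method over the 16719 genes tested, 6 of the 10 were higher and 1 was lower at adjusted p under 0.05, beside 31.9% of all tested genes higher and 31.0% lower (62.9% in either direction). Their median log2 fold change was 0.42, against -0.0016 over all genes tested. Without frankincense replicate 3 the count was 8 higher and 1 lower, with STIP1 and CDC37 added. Calls over the whole table also rose in that fit, to 5690 genes higher and 5341 lower of 17191 tested. The 2 that at least doubled, HSP90B1 and CHORDC1, stand beside 5.14% of all tested genes called at least 2-fold higher.

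**Figure D1:**
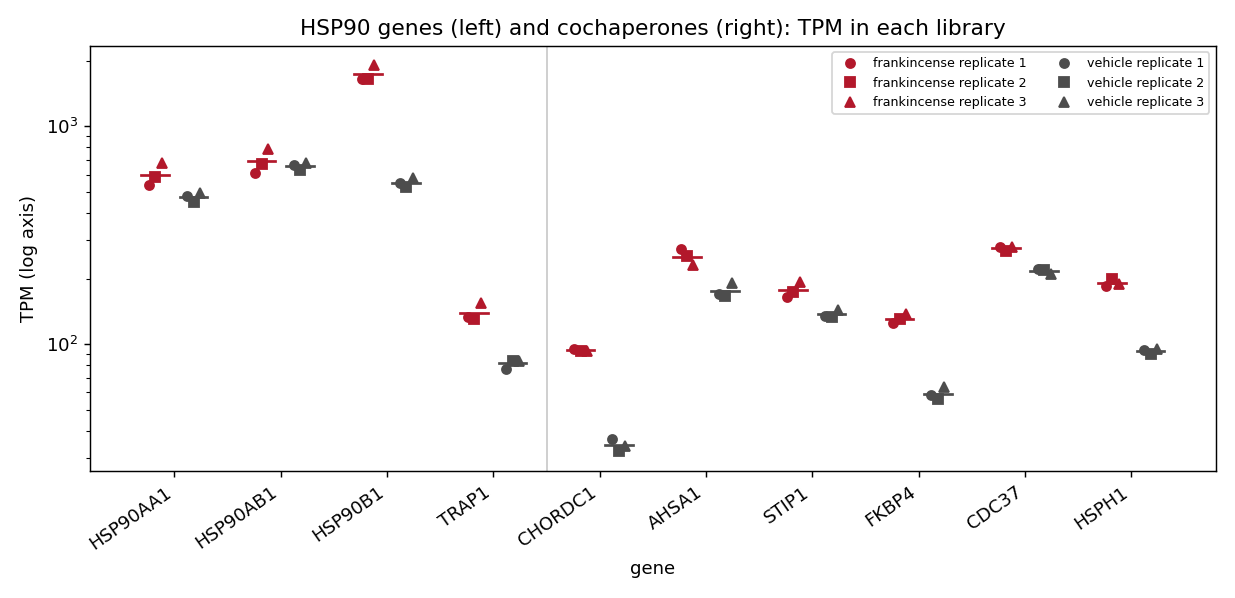
TPM (log axis) of the 4 HSP90 genes and the 6 cochaperone genes in each library, frankincense in red left of vehicle in grey, with a line at the mean of 3 libraries. HSP90B1 lies at 1650 to 1906 TPM in frankincense libraries and 528 to 576 TPM in vehicle libraries, while HSP90AB1 is the only gene of the 10 whose groups overlap.

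The scale matters for the small changes. The mRNAs and rRNAs of the mitochondrial genome made up 9.5% to 11.0% of counts after frankincense and 14.01% to 14.7% after vehicle, and on the log2(TPM + 1) scale the median change of all tested genes was 0.20. On that scale limma called 9 of the 10 genes higher and 0 lower, beside 43.8% of all tested genes higher and 14.8% lower. The TPM ranges of the groups did not overlap for 9 of the 10 genes, beside 65.2% of all tested genes. HSP90AB1 was the exception. Log2 fold changes below are from counts, and levels are TPM.

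**Figure D2:**
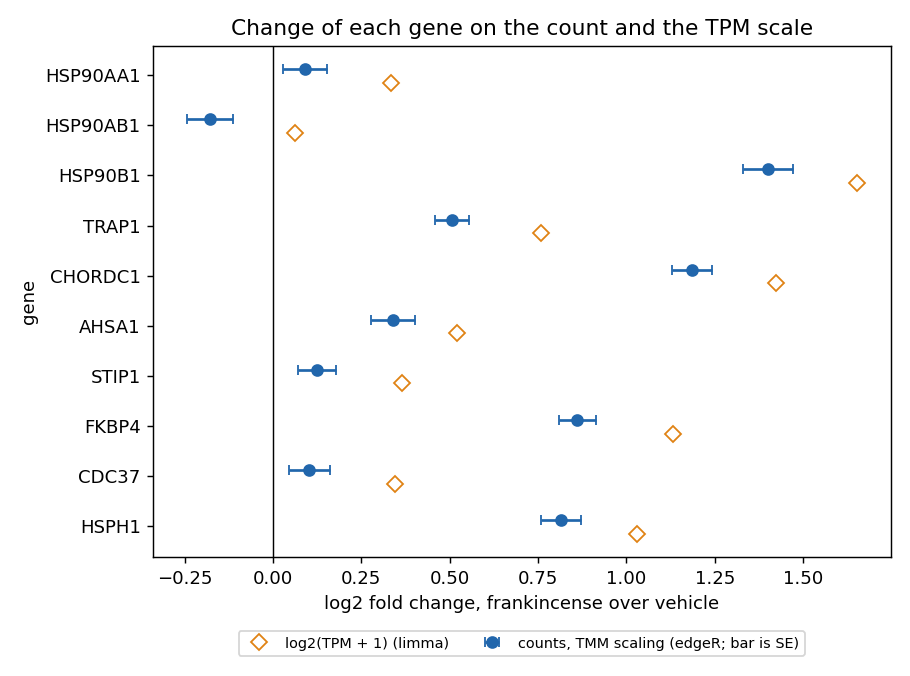
Log2 fold change of each gene, frankincense over vehicle, from counts with TMM scaling (filled points, bars are SE) and from log2(TPM + 1) (open diamonds). Every diamond lies to the right of its filled point, and HSP90AB1 changes sign, at -0.18 from counts and 0.06 from TPM.

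HSP90B1, the HSP90 of the endoplasmic reticulum (ENSG00000166598, GRCh38 chromosome 12, 103930107 to 103953645, plus strand), folds a narrow set of secreted and membrane proteins, among them integrins and toll-like receptors. Its level was 1654, 1650 and 1906 TPM in frankincense replicates 1, 2 and 3, against 549, 528 and 576 TPM in vehicle replicates 1, 2 and 3. Every frankincense library lay far above every vehicle library, and frankincense replicate 3 was the highest. The log2 fold change was 1.40 ± 0.071 (SE), with an edgeR adjusted p of 5.7e-10, and it was 1.33 without frankincense replicate 3. It ranged from 1.33 to 1.44 when any single library was left out.

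The window around the RefSeq start of HSP90B1 (250 bases before it to 50 after, GRCh38.p14) holds 2 matches to the ER stress response element, the binding site of ATF6 and NF-Y. The letters searched, on both strands, were CCAAT and CCACG with 9 bases of any kind between them. Of 35116 such windows over all genes with an entry, 27 (0.0769%) hold one, and among the 19 endoplasmic reticulum chaperone genes described later that have an entry, 5 do (HSPA5, CALR, CANX, CRELD2 and PDIA6). The matches are shown because HSP90B1 is the member with the largest change. They are in capitals, on the gene's strand, and the second is in the reverse orientation. A match is a description of the letters and not evidence of binding.
HSP90B1, chr12:103930206-103930250, plus strand: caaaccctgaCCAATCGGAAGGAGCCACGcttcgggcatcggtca
HSP90B1, chr12:103930316-103930344, plus strand: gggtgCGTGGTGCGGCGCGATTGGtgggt

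HSP90AA1 encodes the heat-inducible cytosolic HSP90-alpha (ENSG00000080824, chromosome 14, 102080738 to 102139699, minus strand). It was at 536, 583 and 680 TPM in frankincense replicates 1 to 3 and at 480, 447 and 495 TPM in vehicle replicates 1 to 3. The groups did not overlap in TPM, but the counts scaled by TMM did overlap, with frankincense replicate 1 inside the vehicle range. The count-based log2 fold change was 0.09 ± 0.063 (edgeR adjusted p = 0.23). It was called at 0.17 with library size scaling (adjusted p = 0.036) and at 0.33 on the log2(TPM + 1) scale (limma adjusted p = 0.0096), and not at 0.15 when TPM was rescaled without mitochondrially encoded genes (limma adjusted p = 0.17).

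HSP90AB1, the constitutive cytosolic HSP90-beta (ENSG00000096384, chromosome 6, 44246166 to 44253888, plus strand), was at 613, 671 and 787 TPM in frankincense libraries and at 662, 630 and 682 TPM in vehicle libraries. The frankincense libraries straddled the vehicle range, with replicate 1 below it and replicate 3 above it. From counts it fell by 0.18 ± 0.065 on the log2 scale (edgeR adjusted p = 0.027). The call was lost without vehicle replicate 1 (adjusted p = 0.098), 2 (0.058) or 3 (0.098) and without frankincense replicate 1 (0.11) or 2 (0.070). Without frankincense replicate 3 the value was -0.22 (edgeR adjusted p = 9.1e-06). On the log2(TPM + 1) scale the sign turned, to 0.06 (limma adjusted p = 0.57).

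Both cytosolic genes hold matches to the heat shock element, the binding site of HSF1, near a RefSeq start. The motif searched, on both strands, has 3 units, GAA, TTC and GAA, each 2 bases apart, and is found in 0.49% of the 35116 windows. Of the 9 member genes with an entry, HSP90AA1, HSP90AB1 and CHORDC1 hold it. In the stretches below, capitals mark it together with its 2-unit forms GAANNTTC and TTCNNGAA, which lie within or beside the longer match and are found in 6.77% and 7.74% of all windows. For HSP90AA1 the start is the downstream one of 2, at 102087044, and for HSP90AB1 the most downstream of 3, at 44247943. The windows at their other starts hold no such match. CHORDC1, with 3 overlapping copies, is shown beside them because it rose, whereas neither cytosolic HSP90 gene was called higher from counts. The windows of TRAP1, AHSA1, STIP1, CDC37 and HSPH1 hold no exact match to the 3-unit motif or the ER stress response element. A STIP1 window holds the 2-unit form TTCNNGAA. No mismatch was allowed, and only 2 of the 10 listed cytosolic chaperone genes described later, DNAJA1 and HSPA8, hold the 3-unit motif. A miss is therefore not evidence that a heat shock element is absent.
HSP90AA1, chr14:102087105-102087134, minus strand: tcTTCCGGAAGGTTCgggaggcTTCTGGAA
HSP90AB1, chr6:44247773-44247848, plus strand: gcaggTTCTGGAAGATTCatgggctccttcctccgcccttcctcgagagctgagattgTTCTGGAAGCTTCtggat
CHORDC1, chr11:90223082-90223111, minus strand: cgGAAAATTCGCGAAGGTTCCTGAAacgca

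TRAP1, the mitochondrial HSP90 (ENSG00000126602, chromosome 16, 3651639 to 3717597, minus strand), was at 133, 130 and 154 TPM after frankincense and at 77.3, 84.1 and 83.9 TPM after vehicle. All frankincense libraries were higher. The log2 fold change was 0.51 ± 0.048 (edgeR adjusted p = 3.9e-07), and 0.49 to 0.53 with any single library left out. DNASE1 overlaps TRAP1 on the other strand, with at most 1265 counts in any library, against at least 2465 for TRAP1. No strand-keeping kit is stated, so reads from the overlap of these genes cannot be told apart. In the same way WDR20 overlaps HSP90AA1 (at most 477 counts, against at least 26084), VIPAS39 overlaps AHSA1 (665 against 2422) and PDE4A overlaps CDC37 (761 against 5238).

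Set against each other within a library, where scaling between libraries drops out, the HSP90 genes stood in different proportions in the 2 groups. HSP90B1 had 2.70, 2.46 and 2.42 times the TPM of HSP90AB1 in frankincense replicates 1 to 3, against 0.829, 0.838 and 0.845 times in vehicle replicates 1 to 3. The order of these genes was thus reversed: HSP90B1 was the most abundant HSP90 mRNA in each frankincense library and HSP90AB1 in each vehicle library. The log2 ratio of HSP90B1 to HSP90AB1 differed by 1.59 ± 0.050 (SE, n = 3 each), that of HSP90B1 to HSP90AA1 by 1.32 ± 0.046 and that of HSP90B1 to TRAP1 by 0.89 ± 0.054. The log2 ratio of TRAP1 to HSP90AB1 differed by 0.70 ± 0.077 and that to HSP90AA1 by 0.43 ± 0.082. Within the cytosol the inducible gene stood higher against the constitutive one, by a smaller amount: HSP90AA1 had 0.875, 0.870 and 0.864 times the TPM of HSP90AB1 after frankincense and 0.725, 0.711 and 0.726 times after vehicle, a log2 difference of 0.27 ± 0.011. For each of these 6 ratios the groups did not overlap. The ratios share genes and so are not independent of each other. No share over other gene pairs was computed to set beside them, and for single genes the TPM groups were apart in 65.2% of those tested. Leaving out any one library gave 1.54 to 1.62 for HSP90B1 to HSP90AB1 and 0.26 to 0.28 for HSP90AA1 to HSP90AB1. The exact two-sided permutation test gave p = 0.1, the smallest that 3 against 3 libraries allow, and 0.12 after Benjamini-Hochberg adjustment over 12 ratios, so the design cannot reach 0.05 for any of them.

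**Figure D3:**
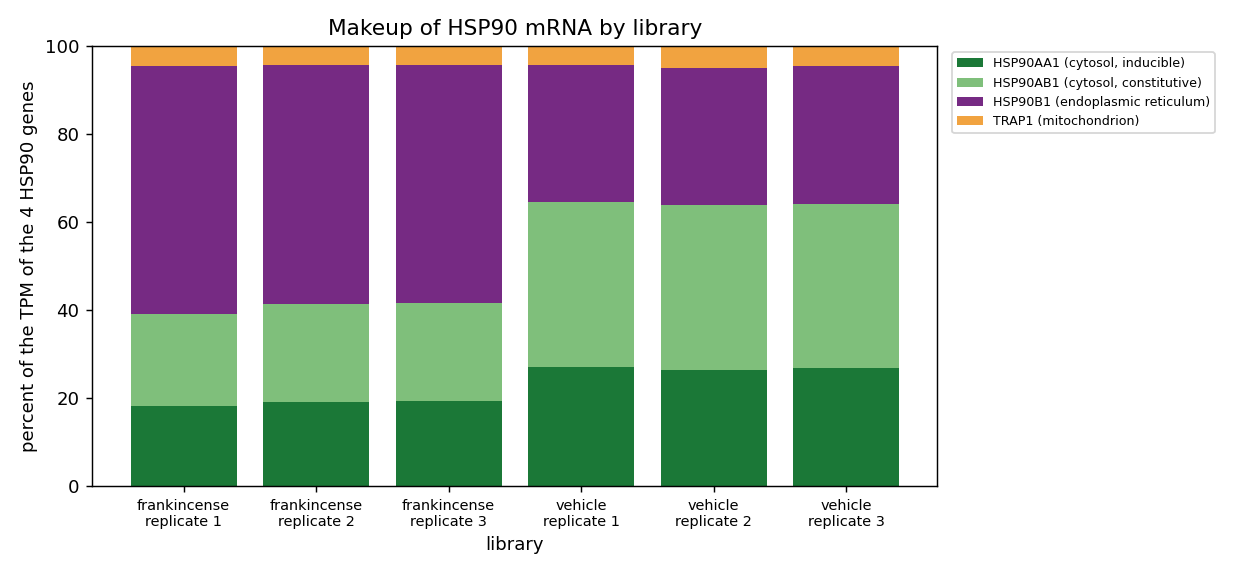
Percent of the summed TPM of the 4 HSP90 genes that each gene contributes, one bar per library, frankincense at left. HSP90B1 makes up 54.0% to 56.3% of the sum in frankincense libraries and 31.0% to 31.4% in vehicle libraries.

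The summed TPM of the 4 HSP90 genes was 2936, 3034 and 3527 in frankincense libraries and 1768, 1689 and 1836 in vehicle libraries. HSP90B1 made up 54.9% ± 1.24 of it after frankincense and 31.2% ± 0.17 after vehicle (SD, n = 3). The share of HSP90AB1 was 21.8% ± 0.78 after frankincense and 37.3% ± 0.17 after vehicle, and that of HSP90AA1 was 18.9% ± 0.58 after frankincense and 26.9% ± 0.33 after vehicle. TRAP1 had a small share, 4.4% ± 0.13 after frankincense and 4.64% ± 0.31 after vehicle, with overlapping groups (exact permutation p = 0.2). For the other shares and the sum p was 0.1. The cytosolic pair together came to 1149, 1254 and 1467 TPM after frankincense and 1142, 1077 and 1176 TPM after vehicle, which overlap (exact permutation p = 0.2).

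CHORDC1, a zinc-binding protein that binds HSP90 through its CHORD and CS domains (ENSG00000110172, chromosome 11, 90201160 to 90223364, minus strand), changed the most among the cochaperones. It was at 95.0, 93.2 and 92.7 TPM after frankincense and at 36.7, 32.2 and 34.2 TPM after vehicle. The frankincense libraries were close together and well clear of the vehicle ones. The log2 fold change was 1.19 ± 0.057 (edgeR adjusted p = 3.3e-10), a 2.27-fold rise, and 1.22 without frankincense replicate 3. CHORDC1 was the least abundant of the 10 genes in both groups.

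FKBP4, also called FKBP52, is an immunophilin that helps steroid receptors bind hormone, and mice without it are resistant to progesterone in the uterus (ENSG00000004478, chromosome 12, 2794953 to 2805423). It was at 125, 130 and 137 TPM after frankincense and at 58.2, 55.8 and 63.3 TPM after vehicle, with no overlap. It rose by 0.86 ± 0.052 on the log2 scale (edgeR adjusted p = 3.7e-09). The progesterone receptor gene PGR, picked out here after its values were seen, was under 1 TPM in all libraries, at -0.51 ± 0.27 (edgeR adjusted p = 0.12).

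HSPH1 (HSP110; ENSG00000120694, chromosome 13, 31134974 to 31162388) was at 186, 200 and 189 TPM in frankincense libraries and at 94.5, 90.5 and 94.5 TPM in vehicle libraries. All frankincense libraries were well above all vehicle libraries, and the log2 fold change was 0.82 ± 0.056 (edgeR adjusted p = 1.4e-08). AHSA1 (AHA1; ENSG00000100591, chromosome 14, 77457870 to 77469474), which speeds up the ATPase of HSP90, was at 274, 253 and 230 TPM after frankincense and at 169, 166 and 191 TPM after vehicle. The groups did not overlap, though frankincense replicate 3, the lowest treated library, came nearest to vehicle replicate 3. AHSA1 rose by 0.34 ± 0.062 (edgeR adjusted p = 2.3e-04), and by 0.42 without frankincense replicate 3.

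STIP1, or HOP, bridges HSP70 and HSP90 (ENSG00000168439, chromosome 11, 64185272 to 64204543). It was at 165, 173 and 192 TPM after frankincense and at 134, 133 and 144 TPM after vehicle. All frankincense libraries were higher, but the count-based change was small, 0.12 ± 0.053, and narrowly missed the threshold (edgeR adjusted p = 0.053). DESeq2 (adjusted p = 0.025), limma-voom (0.039) and edgeR without frankincense replicate 3 (0.017) or vehicle replicate 3 (0.0498) did call it. So did edgeR with library size scaling (0.0052) or without mitochondrially encoded genes (0.047). It was not called by edgeR with upper-quartile scaling (0.20) or a filter of 5 CPM in 3 libraries (0.10). Nor was it called without vehicle replicate 1 (0.16) or 2 (0.19) or without frankincense replicate 1 (0.064) or 2 (0.074).

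CDC37, which delivers kinases to HSP90 (ENSG00000105401, chromosome 19, 10391134 to 10420121), was at 278, 269 and 279 TPM after frankincense and at 221, 219 and 210 TPM after vehicle. The TPM ranges were apart while the scaled counts overlapped, and the log2 fold change was 0.10 ± 0.058 (edgeR adjusted p = 0.14). Without frankincense replicate 3 it was 0.15 and called (adjusted p = 0.0068), as it was with library size scaling (0.013). It was not called with upper-quartile scaling (0.39) or with any other single library left out (edgeR adjusted p of 0.17 to 0.40). On the log2(TPM + 1) scale STIP1 and CDC37 were both called higher, at 0.36 (limma adjusted p = 0.0015) and 0.34 (limma adjusted p = 3.0e-04).

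The cochaperones were set against the summed TPM of HSP90AA1 and HSP90AB1 in the same library. CHORDC1 had 0.0827, 0.0743 and 0.0632 times that sum in frankincense replicates 1 to 3, against 0.0321, 0.0299 and 0.0291 times in vehicle replicates 1 to 3. Its log2 ratio differed by 1.27 ± 0.12 (SE), that of FKBP4 by 0.96 ± 0.070, that of HSPH1 by 0.86 ± 0.11 and that of STIP1 by 0.18 ± 0.044, each with groups that did not overlap (exact permutation p = 0.1, adjusted p = 0.12). For AHSA1 (0.34 ± 0.18, exact permutation p = 0.2) and CDC37 (0.16 ± 0.11, exact permutation p = 0.3) the groups overlapped. These ratios share a denominator, and no share over other gene pairs was computed for them either. In frankincense replicate 3 all 6 ratios were lower than in the other frankincense libraries. Without that library the AHSA1 difference was 0.50 and the CDC37 difference 0.25.

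**Figure D4:**
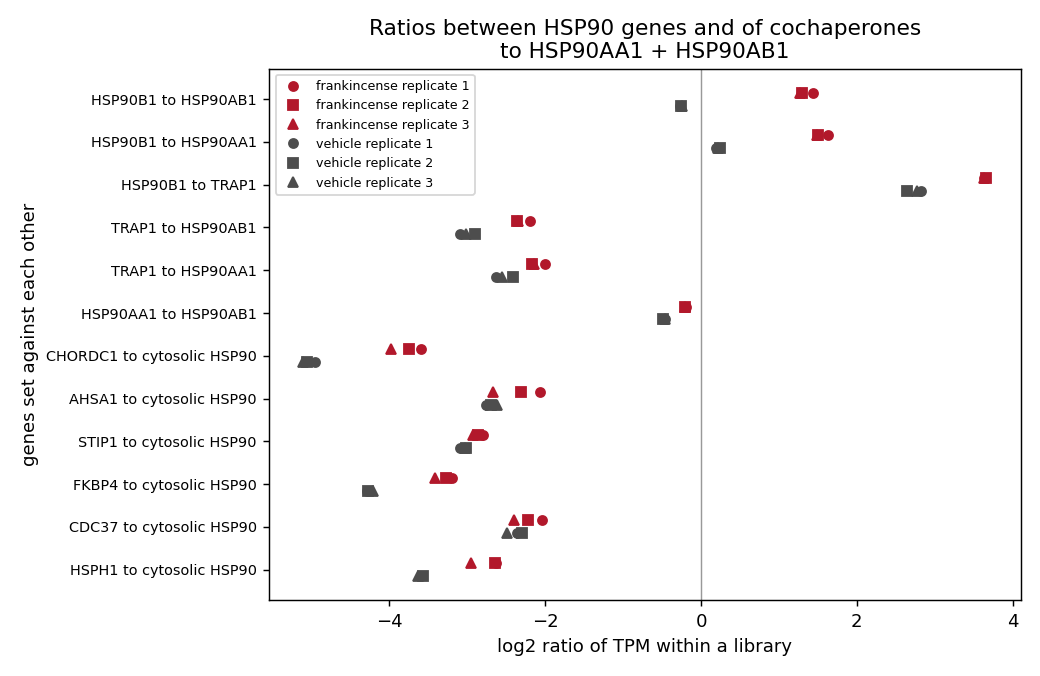
Log2 ratio of TPM within each library between pairs of HSP90 genes (upper 6 rows) and of each cochaperone to HSP90AA1 plus HSP90AB1 (lower 6 rows), frankincense in red above vehicle in grey. The groups are apart in all rows except those of AHSA1 and CDC37.

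By mean TPM the order after frankincense was HSP90B1, HSP90AB1, HSP90AA1, CDC37, AHSA1, HSPH1, STIP1, TRAP1, FKBP4 and CHORDC1. The ranges overlapped between HSP90AB1 and HSP90AA1, CDC37 and AHSA1, HSPH1 and STIP1, and TRAP1 and FKBP4. Within each frankincense library HSP90AB1 was above HSP90AA1, CDC37 above AHSA1 and TRAP1 above FKBP4, while HSPH1 was above STIP1 in replicates 1 and 2 and below it in replicate 3. After vehicle the order was HSP90AB1, HSP90B1, HSP90AA1, CDC37, AHSA1, STIP1, HSPH1, TRAP1, FKBP4 and CHORDC1, with no overlap between neighbours.

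The mean transcript length that RSEM reports for each gene, weighted by the abundance of its isoforms, is a readout of the isoform mix. HSP90AA1 averaged 3124 ± 27.9 bases after frankincense and 3128 ± 16.8 after vehicle (SD, n = 3), and HSP90AB1 averaged 2556 ± 0.53 after frankincense and 2556 ± 0.16 after vehicle. HSP90B1 averaged 2036 ± 121 bases after frankincense and 2053 ± 27.8 after vehicle. The groups overlapped for all 10 genes, and exact two-sided permutation p-values ran from 0.4 to 1, where the smallest possible is 0.1. The largest difference in bases was that of FKBP4, at 3060 ± 14.5 bases after frankincense and 3150 ± 123 after vehicle.

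Processed pseudogenes of HSP90 could take reads from the parent genes, since RSEM divides reads among similar sequences. The 12 listed copies, each under 1 TPM in every library, summed to 1.52 to 1.83 TPM after frankincense and 0.98 to 1.27 TPM after vehicle, and 4 of them had 0 counts throughout. Counts of HSP90AA1, HSP90AB1 and HSP90B1 were fractional in all 6 libraries, to the 2 decimals given, whereas those of AHSA1, STIP1, CDC37 and HSPH1 were whole in all 6. Adding the pseudogene TPM to the parent genes moved no ratio by more than the spread between replicates.

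Of 32 other cochaperones of cytosolic and nuclear HSP90, all tested, 17 rose, 5 fell and 10 were not called, with a median log2 fold change of 0.17 (25 higher and 1 lower on the log2(TPM + 1) scale, median 0.41). Over all tested genes 31.9% were higher and 31.0% lower from counts, and 43.8% higher and 14.8% lower on the TPM scale. The largest rises were those of FLCN (folliculin) at 0.73 ± 0.055, CDC37L1, a CDC37 relative, at 0.70 ± 0.091 and FNIP1, the folliculin partner that slows the HSP90 ATPase, at 0.67 ± 0.062. Among those that fell were the membrane-anchored immunophilin FKBP8 at -0.30 ± 0.053 and the R2TP subunit PIH1D1 at -0.27 ± 0.054. On the log2(TPM + 1) scale FKBP8 and PIH1D1 were at -0.06 and -0.03 and not called. FKBP5, the immunophilin that opposes FKBP4 in steroid receptor complexes, rose by 0.36 ± 0.12 on a low level of 2.31 to 2.73 TPM after frankincense and 1.64 to 1.70 TPM after vehicle. That call was lost without frankincense replicate 1 or vehicle replicate 3 and in DESeq2 (adjusted p of 0.086, 0.053 and 0.080). PTGES3, the p23 protein that closes the HSP90 dimer, fell by 0.24 ± 0.057, and was at -0.0044 on the TPM scale (limma adjusted p = 0.95). No window of the 24 of these genes with an entry held an exact match to the 3-unit heat shock element. As above, such a miss is not evidence that the element is absent.

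The compartments were read from 3 further chaperone lists. In the endoplasmic reticulum, 19 of 21 chaperones and folding factors rose and 2 fell, with a median of 1.15 (19 and 1 on the TPM scale, median 1.35), beside 31.9% higher and 31.0% lower of all tested genes from counts and 43.8% and 14.8% on the TPM scale. HSPA5, the HSP70 of that compartment and partner of HSP90B1, rose by 2.56 ± 0.073, beside 1.40 ± 0.071 for HSP90B1, and its cofactor DNAJB9 by 3.39 ± 0.13. CNPY3, the cochaperone through which HSP90B1 folds toll-like receptors, rose by 0.17 ± 0.053, a call lost without frankincense replicate 1 (adjusted p = 0.051) or vehicle replicate 3 (0.058) and with upper-quartile scaling (0.051). Its relative CNPY4 fell by 1.0 ± 0.063.

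In mitochondria 11 of 16 chaperones and proteases rose, 3 fell and 2 were not called, with a median of 0.49 (12 and 1 on the TPM scale, median 0.69), beside the same shares of all tested genes, 31.9% higher and 31.0% lower (43.8% and 14.8% on the TPM scale). HSPA9, the mitochondrial HSP70, rose by 1.32 ± 0.055, beside 0.51 ± 0.048 for TRAP1, and the chaperonin HSPD1 by 0.60 ± 0.058. Its partner HSPE1 fell by 0.73 ± 0.080. Of 10 listed cytosolic chaperones outside the HSP90 family, 7 rose, 1 fell and 2 were not called, with a median of 0.41. On the TPM scale 8 rose and 1 fell, with a median of 0.69. The shares of all tested genes were again 31.9% and 31.0% (43.8% and 14.8% on the TPM scale). The list was drawn up for heat-inducible chaperones but also holds the largely constitutive HSPA8 and HSPA4. Both count among the 7 that rose. HSPA4L, an HSP110 relative, rose by 0.80 ± 0.073, and HSPB1, a small heat shock protein, fell by 0.50 ± 0.12, a call lost without frankincense replicate 3 (-0.37, adjusted p = 0.071). Of 4 genes for heat shock factors and their inhibitor, 1 rose, 2 fell and 1 was not called, with a median of -0.16 (2 and 2 on the TPM scale, 2 higher without frankincense replicate 3), too few to set beside those shares. HSF1 rose by 0.34 ± 0.056, while HSBP1, which encodes an inhibitor that binds HSF1, fell by 0.58 ± 0.070.

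**Figure D5:**
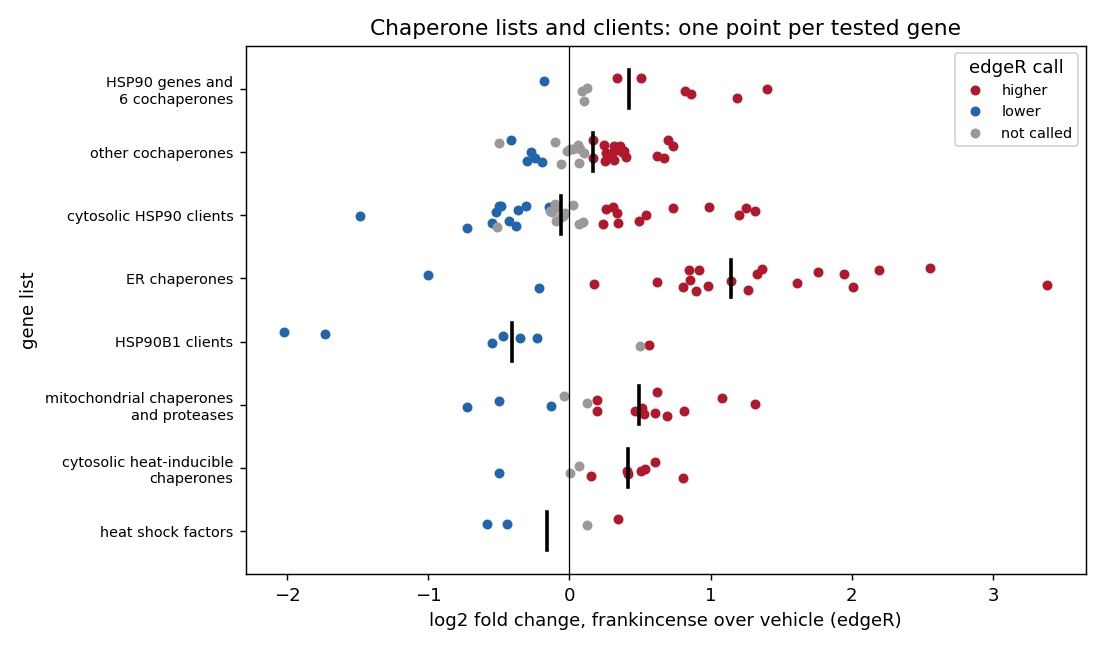
Log2 fold change of each tested gene (edgeR, frankincense over vehicle) by list, colored by call, with a bar at the list's median. Endoplasmic reticulum chaperones lie furthest to the right, with a median of 1.15, and clients of cytosolic HSP90 spread to both sides, with a median of -0.06.

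Of 38 listed genes of cytosolic HSP90 clients, the proteins it folds, 35 passed the filter on low counts, of which 12 rose, 11 fell and 12 were not called, with a median of -0.06 (13 and 3 on the TPM scale, median 0.18). These counts are near the background of 31.9% higher and 31.0% lower among all tested genes and are no result about clients. On the TPM scale the background was 43.8% higher and 14.8% lower. EIF2AK3, the kinase PERK, rose by 1.32 ± 0.15 and the mitotic kinase PLK1 fell by 0.72 ± 0.062. Of 13 listed clients of HSP90B1, 8 passed the filter, of which 6 fell and 1 rose, with a median of -0.41. Without frankincense replicate 3, 2 rose. On the TPM scale 1 rose and 3 fell, with a median of -0.15. The background was the same, from counts (31.9% higher, 31.0% lower) and on the TPM scale (43.8% higher, 14.8% lower). The integrin subunit gene ITGB8 was at a low level, 0.53, 0.94 and 0.64 TPM after frankincense and 1.58, 1.68 and 1.65 TPM after vehicle. It fell by 2.02 ± 0.11 on the log2 scale from counts and by 0.64 on the log2(TPM + 1) scale. Adding 1 shrinks the change of low genes, but the ITGB8 counts and TPM also went apart. Frankincense replicates 1 and 2 had 69 and 70 counts at 0.53 and 0.94 TPM. The source of the gap between the scales was not tested. ITGB3 rose by 0.57 ± 0.092 from counts and by 0.75 on the log2(TPM + 1) scale.

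Genes whose profile over the 6 libraries was closest to that of an HSP90 gene were found by Euclidean distance of log2 CPM centred on the vehicle mean. They were sought among 11819 genes with a symbol and a mean of 5 CPM or more in the higher group. For HSP90B1 they were TMEM39A (distance 0.078), ATP6V0A2 (0.12) and N4BP2 (0.14). For TRAP1 they were RRP7A (0.044), RALGAPA1 (0.045) and MTMR4 (0.058). For HSP90AA1 they were DCAF1 (0.027), TBC1D5 (0.034) and PRPS1 (0.040), and for HSP90AB1 VRK3 (0.054), SNRNP200 (0.060) and ZNF776 (0.061). Of the genes near the cytosolic pair only SNRNP200 was called (-0.19, edgeR adjusted p = 0.012). Those near HSP90AA1 changed by 0.083 to 0.10 on the log2 scale and were not called. With values centred on the vehicle mean, the distance depends on the size of the change, so a small distance is no sign of shared regulation. These distances describe likeness in 6 libraries only.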

How the data were processed

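The deposited files give, per the file headers, RSEM expected counts, TPM, FPKM and transcript lengths for 60616 genes in 6 libraries. Per the submitters' processing notes, STAR and RSEM 1.3.1 were used with GRCh38. The annotation is not given in the sources used here. The authors' expected counts need not be whole, because shared reads are divided. The deposited TPM values are scaled to 1 total per library, and the deposited FPKM values were not used. Symbols came from a gene name table and coordinates from GENCODE 29.

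Expected counts were rounded and tested with edgeR 4.0.16 (R 4.3.3): filterByExpr, TMM, glmQLFit with robust and legacy options, and glmQLFTest on group, with Benjamini-Hochberg adjustment over all genes kept. SE is the absolute log2 fold change over the square root of F. Ratios and lengths were compared by exact two-sided permutation tests (scipy 1.17.1). The fit was tested on simulated data. Alternatives were other scalings, DESeq2 1.42.0, limma 3.58.1 on counts and TPM, filters, leaving out mitochondrial genes or each library, and a replicate block. Promoter sequences are RefSeq's (GRCh38.p14), with entries for 9 of the 10 genes; FKBP4 had none.

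The members and lists were chosen with earlier results of these data known. Named genes are all members, the largest called rise and fall of each list (3 each for other cochaperones) with at least 5 CPM in the higher group, 8 genes named whatever their result, and the 3 nearest profiles of each HSP90 gene. A gene that this rule selects is not reported here.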

Additional observations from a re-analysis of the deposited data

How the results depend on the processing

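Over the alternatives run, the 6 genes called higher (HSP90B1, TRAP1, CHORDC1, AHSA1, FKBP4 and HSPH1) were called higher in each. HSP90AB1 was the unstable call: the number of the 10 genes called lower was 1, and 0 with library size scaling, on either TPM scale and on TPM without mitochondrially encoded genes, and 0 to 1 with a library left out. It turned to 0.0619 on log2(TPM + 1) and 0.0620 on log2(TPM + 0.1). With these pseudocounts the signs of other genes called lower also turned: RUVBL2 to 0.0226 and 0.0228, AKT2 to 0.17 and 0.18, EIF2AK4 to 0.0610 and 0.0626, CNPY2 to 0.0168 and 0.0169, and PPIF to 0.13 and 0.13. Genes called lower over the whole table were 5177 from counts, 2474 on log2(TPM + 1) and 2477 on log2(TPM + 0.1). On these 2 scales lower calls were 1 and 1 among other cochaperones, 3 and 4 among cytosolic clients, 1 and 1 among endoplasmic reticulum chaperones, 3 and 3 among HSP90B1 clients, and 1 and 1 among mitochondrial chaperones. Genes of the heat shock factor list called higher were 2 with library size scaling and 2 on both TPM scales, and HSP90B1 clients called higher 2 with library size scaling. With a library left out, these were 1 to 2 and 1 to 2, and genes of the cytosolic chaperone list called lower 0 to 1. The median change of all genes was 0.075 with library size alone and 0.20 on log2(TPM + 1). The difference in HSP90AB1 length was 0.30 bases, and -1.22 bases in effective length. The causes were not tested.

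The labels do not say whether equal replicate numbers pair the libraries. Same-numbered libraries had deviations correlated at 0.050, 0.10 and 0.035, and the other pairs at -0.070 to 0.021. The replicate block changed the call of 0 of the 10 genes, with HSP90AB1 at -0.18 (edgeR adjusted p = 0.024). Each library correlated best with its own number, but all the correlations were small. The deviations were centred within each group of 3, so the correlations depend on each other and cannot settle whether the libraries are paired. With 3 libraries a group, the permutation tests cannot go below 0.1, and at this depth genes near 3 counts a library could not be compared.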
